A study of Sus scrofa with 30 samples.

Results

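The genes described here encode proteins of the extracellular matrix, the proteases that cut them and the integrins by which cells hold on to them, as measured in the teats of pigs. They were chosen by symbol, from the genes for which the microarray has a probe set that the platform annotation pairs with a single gene. Symbols that begin with COL and a digit, LAM with a chain and a digit, ITGA, ITGB, FBLN, FBN, MFAP, MMP, TIMP, ADAM or LOX were taken, together with ASPN, DCN and LUM, and MMP7 was left out. This gave 64 of the 6765 genes with such a probe set. Where a gene had several probe sets, as 29 of the 64 did, the probe set with the highest mean over all arrays stood for the gene. By function the 64 genes were 7 fibrillar collagens, 3 collagens of basement membranes and anchoring fibrils, 5 other collagens, 3 laminin chains, 3 small leucine-rich proteoglycans, 8 genes of the elastic fibre and collagen crosslinking groups, 7 matrix metalloproteinases, 4 of their tissue inhibitors, 10 ADAM and ADAMTS proteases and 12 integrin subunits. The remaining 2 share only a name with these groups. ITGB1BP2 encodes melusin, an integrin-binding protein of muscle, and MFAP1 encodes a splicing factor.

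The study asked which genes bear on the predisposition of pigs to inverted teats, a defect in which the teat does not protrude. Peripubertal pigs of commercial dam lines were sampled at slaughter, when they weighed 110 kg on average. Each Affymetrix Porcine array was hybridised with label made from 500 ng of total RNA. The 30 arrays form 6 groups of 5 arrays, each array from 1 animal. Of the 10 animals, 5 were not affected (animals 950, 957, 1040, 1058 and 1109) and 5 were affected (animals 963, 964, 1037, 1059 and 1103). Every animal gave epithelial and mesenchymal tissue of a normal teat, and every affected animal gave both tissues of an inverted teat as well. Most animals (6 of 10) were Large White x German Landrace. Animals 957 and 963 were German Landrace. For animals 1103 and 1109 the labelled breed was Pietrain x (Large White x German Landrace). The same animals therefore stand behind both tissues, and behind the normal and inverted teats of the affected group. Affected and non-affected animals are different individuals.

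The matrix gives a teat its shape and its mechanical strength. Fibrillar collagens form the load-bearing fibres, decorin-like proteoglycans set fibre diameter and spacing, and lysyl oxidases crosslink collagen and elastin, which itself is deposited on fibrillin microfibrils. Basement membranes of laminin and type IV collagen separate epithelium from the tissue beneath and surround muscle fibres, fat cells and vessels. Metalloproteinases and ADAMTS enzymes remove or trim these proteins, their tissue inhibitors restrain them, and integrins link the matrix to the cytoskeleton.

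All values are log2 signals of single probe sets. The probe sets differ in sensitivity, so the signal of a gene is compared between arrays and not with that of another gene. Medians of the 30 arrays lay between 5.71 and 6.04. Of the 64 genes, DCN had the highest mean signal over all arrays, 12.80, followed by COL6A3 at 12.20, COL6A2 at 11.53, LUM at 11.44 and MMP2 at 11.43. ITGA6 at 2.13, MMP20 at 2.46 and ADAMDEC1 at 2.58 had the lowest. A gene entered a test when its signal exceeded the 30th percentile of the array on at least 5 arrays of that fit. In the comparison of tissues 56 genes passed, and ADAMDEC1, ADAMTS6, ADAMTS20, TIMP4, ITGA6, ITGAM, MMP1 and MMP20 did not.

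The labelled tissues were checked against markers of the cell types that a teat can hold. In normal teats, the mean of 15 skeletal muscle genes ranged from 2.83 (median 4.05) to 8.97 on epithelial and from 3.18 (median 10.09) to 12.1 on mesenchymal arrays. In the inverted teats it ranged from 3.57 to 8.61 on epithelial and from 3.66 to 11.51 on mesenchymal arrays. Of these muscle genes 14 of 15 were lower in the epithelium of normal teats, as were all 9 adipocyte genes measured, and none of either list was listed at 0 on every array. Luminal epithelial markers, 8 genes of which 7 were higher in epithelium, averaged 7.97 to 10.67 on epithelial arrays of normal teats and 2.49 to 10.8 on mesenchymal ones. The 6 mesenchymal arrays of animals 950, 957, 963 and 964 carried these markers at 9.49 to 11.13, whereas the other 9 mesenchymal arrays lay between 2.49 and 8.52. The epithelial array of the inverted teat of animal 1103 had the lowest luminal mean of the epithelial arrays, 5.12, and was the lowest of the epithelial arrays for 19 of the 64 genes and the highest for 10. It also had the highest means of the smooth muscle (9.96) and endothelial (8.53) markers of the 30 arrays. Counts of calls, and the values that moved most, are given with and without these arrays. The mean of 10 fibroblast genes outside the set lay at 9.44 to 9.99 on epithelial and 9.04 to 9.99 on mesenchymal arrays of normal teats. Of these genes 2 were called higher and 1 lower in epithelium, with a median difference of 0.03. A gene called higher in epithelium is thus higher in the dissected piece, and the cells it came from were not tested. In such bulk tissue, fewer cells of a type and less RNA per cell cannot be told apart.

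Between the 2 tissues of normal teats, the matrix genes did not move as a block. The collagens of basement membranes, a laminin chain and the microfibril gene MFAP5 were higher in mesenchyme, and the proteoglycans ASPN and LUM, the protease ADAMTS1 and the anchoring-fibril collagen COL7A1 were higher in epithelium. At an adjusted p below 0.05, 15 of the 56 genes tested passed, 9 higher in epithelium and 6 higher in mesenchyme. Over all 6147 genes tested, 8.46% were called higher in epithelium and 29% higher in mesenchyme. Among the 15, ADAM2, ADAM28 and MFAP3 reached the filter's 5 arrays only in the tissue where they were higher. They were not called with the stricter filter, where the other 12 stayed called, and their calls are not used as support. The median difference, epithelial minus mesenchymal, was 0.19 over the 56 genes and -0.15 over all genes. The difference was above 0 for 37 of the 56 genes, and ranges over the 10 animals overlapped between tissues for all 15 genes called.

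**Figure D1:**
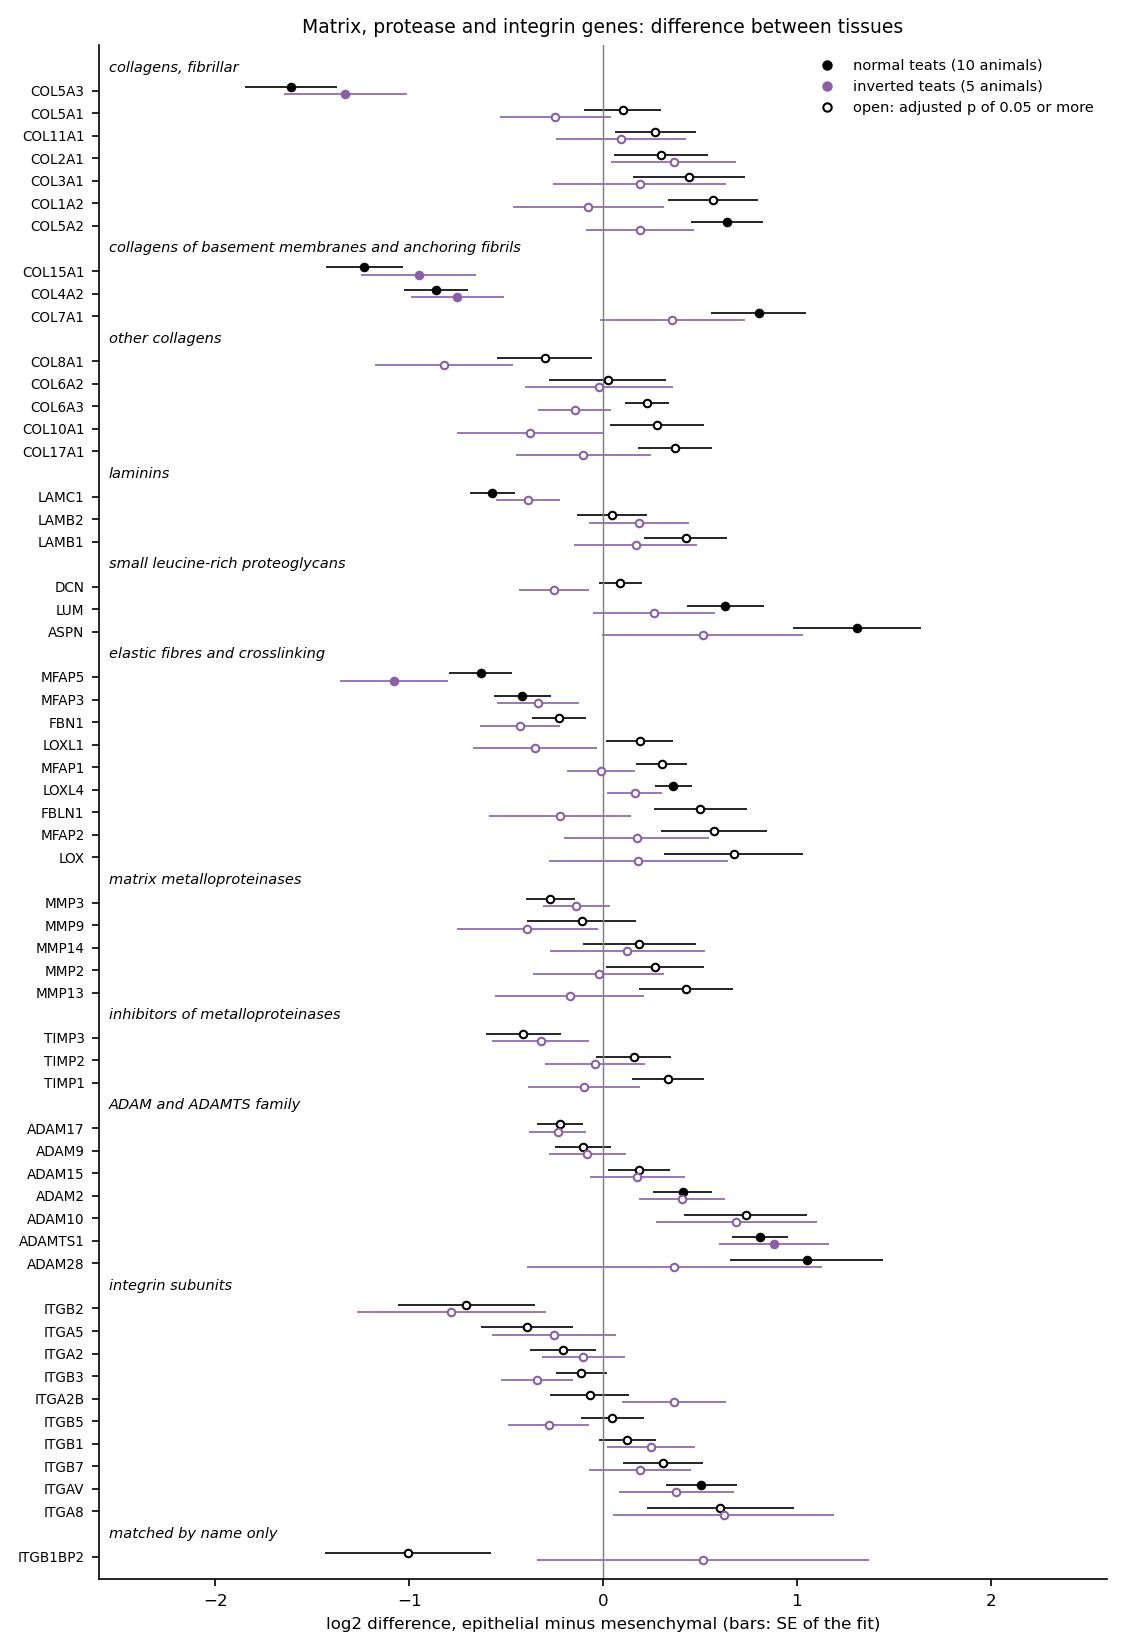
Difference in log2 signal, epithelial minus mesenchymal, for the 56 genes tested, arranged by function (MFAP1 by its name), with bars of 1 SE; normal teats (10 animals) are black and inverted teats (5 animals) purple, and filled points have an adjusted p below 0.05. COL5A3, COL15A1, COL4A2 and MFAP5 are filled to the left of 0 in both kinds of teat and ADAMTS1 to the right.

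Among the fibrillar collagens, COL5A3 had the largest difference. This chain of type V collagen, a regulator of fibril assembly, ranged from 7.88 (median 8.21) to 9.14 in epithelium and from 8.89 to 10.68 in mesenchyme. It was lower in epithelium in all 10 animals, by -1.61 ± 0.24 (SE), a 3.06-fold difference (adjusted p = 7.8e-05), with group means of 8.30 ± 0.42 and 9.92 ± 0.65 (SD, n = 10 each). COL5A2, another chain of the same collagen, ran the other way and was higher in epithelium in 9 of 10 animals, by 0.64 ± 0.18 (adjusted p = 0.013). Its signals were 7.0 (median 7.73) to 8.0 in epithelium and 6.27 (median 6.98) to 7.68 in mesenchyme, and a second probe set of the gene gave -0.04. The type I chain COL1A2 and the type III chain COL3A1 did not pass in the fit without a term for the animal. COL1A2 ranged from 10.62 (median 11.35) to 12.57 and from 10.27 (median 10.87) to 11.99, with a difference of 0.57 in 9 of 10 animals (adjusted p = 0.0644). COL3A1 differed by 0.44 (adjusted p = 0.246), with epithelium above mesenchyme in each of the 10 animals. With the animal as a fixed block, which pairs the 2 tissues, COL3A1 passed (0.44, adjusted p = 0.00842), as did COL1A2.

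All 3 collagens of basement membranes and anchoring fibrils passed, in different directions. COL15A1, which ties basement membranes of muscle and vessels to the matrix around them, ranged from 8.73 (median 9.13) to 10.15 in epithelium and from 9.69 (median 10.73) to 10.94 in mesenchyme. It was lower in epithelium in 10 of 10 animals, by -1.23 ± 0.20 (2.35-fold, adjusted p = 0.000147). COL4A2, a chain of the collagen network of every basement membrane, ranged from 9.70 (median 10.20) to 10.58 and from 10.33 (median 10.96) to 11.59, a difference of -0.86 ± 0.17 in 9 of 10 animals (adjusted p = 0.000727). COL7A1 forms the anchoring fibrils beneath stratified epithelium and was higher in epithelium, by 0.80 ± 0.25 in 8 of 10 animals (adjusted p = 0.0171). Its epithelial signals, 5.58 (median 6.42) to 7.01, overlapped widely with the mesenchymal ones, 4.38 (median 5.56) to 6.59.

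None of the 5 other collagens passed. The type VI chains, which form beaded filaments around cells, differed by 0.02 (COL6A2) and 0.23 (COL6A3), and COL17A1, the hemidesmosome collagen of basal keratinocytes, by 0.37 (adjusted p = 0.140). Of the 3 laminin chains LAMC1, the chain shared by most laminins, was lower in epithelium in 10 of 10 animals, by -0.57 ± 0.12 (adjusted p = 0.00117). Its signals were 9.33 (median 9.60) to 10 in epithelium and 9.80 (median 10.20) to 10.52 in mesenchyme, and its 4 probe sets gave -0.49 to -0.87. LAMB1, named here after its values were seen, differed by 0.43 the other way and did not pass.

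The small leucine-rich proteoglycans were split. ASPN (asporin), which binds collagen and restrains its mineralisation, ranged from 10.04 (median 10.60) to 11.41 in epithelium and from 8.05 (median 9.27) to 10.97 in mesenchyme. It was higher in epithelium in 10 of 10 animals, by 1.31 ± 0.33 (adjusted p = 0.00567), the largest difference in that direction among the 56 genes. LUM (lumican), a regulator of collagen fibril spacing, was higher by 0.63 ± 0.20 in 8 of 10 animals (adjusted p = 0.0186), with 11.21 (median 11.73) to 12.11 against 10.09 (median 11.14) to 11.76. DCN (decorin), the most common proteoglycan of fibrous tissue, differed by 0.09 (adjusted p = 0.561), and its signals spanned 12.50 to 13.25 in epithelium and 12.40 to 13.18 in mesenchyme.

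In the elastic fibre and crosslinking group 3 of 8 genes passed, and of these the call of MFAP3 is not used as support. MFAP5, a glycoprotein of fibrillin microfibrils, was lower in epithelium in 10 of 10 animals, by -0.63 ± 0.16 (adjusted p = 0.00611), with 9.67 (median 10.42) to 11.18 against 10.62 (median 10.94) to 11.64. MFAP3, another protein named for microfibrils, was lower by -0.42 ± 0.15 in 9 of 10 animals (adjusted p = 0.0351) at signals of 4.18 to 5.64, near the filter's level. MFAP3 lay above that level on 4 epithelial and 9 mesenchymal arrays. LOXL4, a lysyl oxidase relative, was higher in epithelium in 10 of 10 animals, by 0.36 ± 0.096 (adjusted p = 0.00753), with 7.45 (median 7.68) to 7.96 against 7.07 (median 7.23) to 7.69. LOX, the principal crosslinking enzyme, was higher in epithelium in each of the 10 animals too, by 0.67, but did not pass (adjusted p = 0.150). The microfibril scaffold FBN1 (-0.23) and the basement membrane and elastic fibre glycoprotein FBLN1 (0.50) did not pass either, and with quantile normalization FBN1 stood at 0.20.

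No protease or inhibitor outside the ADAM families passed. ADAMTS1, which cleaves the large proteoglycans versican and aggrecan, ranged from 9.05 (median 9.54) to 10.06 in epithelium and from 8.34 (median 8.67) to 9.27 in mesenchyme. It was higher in epithelium in 10 of 10 animals, by 0.81 ± 0.14 (1.75-fold, adjusted p = 0.000377), and a second probe set gave 0.68. ADAM28, a membrane-bound protease of lymphocytes and epithelia, was higher by 1.05 ± 0.39 in 8 of 10 animals (adjusted p = 0.0458). It lay above the filter's level on 9 epithelial and 4 mesenchymal arrays, at 3.26 to 6.53 and 3.26 to 5.78. ADAM2, known as a sperm surface protein, was higher by 0.41 ± 0.15 (adjusted p = 0.0432), and at 3.72 to 5.29 it too lay near that level. ADAM2 exceeded it on 8 epithelial and 3 mesenchymal arrays. None of the 5 matrix metalloproteinases and 3 tissue inhibitors tested passed. The gelatinases MMP2 and MMP9 differed by 0.27 and -0.11, TIMP1 by 0.34 (adjusted p = 0.170) and the matrix-bound inhibitor TIMP3 by -0.41 (adjusted p = 0.104).

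Of the 10 integrin subunits tested ITGAV alone passed. This subunit of the vitronectin and fibronectin receptors ranged from 7.86 (median 8.34) to 8.74 in epithelium and from 7.26 (median 7.73) to 8.69 in mesenchyme, a difference of 0.51 ± 0.18 in 8 of 10 animals (adjusted p = 0.0375). ITGB1BP2, the melusin gene, differed by -1.01 (adjusted p = 0.0746), and its second probe set by -1.93 (adjusted p = 0.00666).

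**Figure D2:**
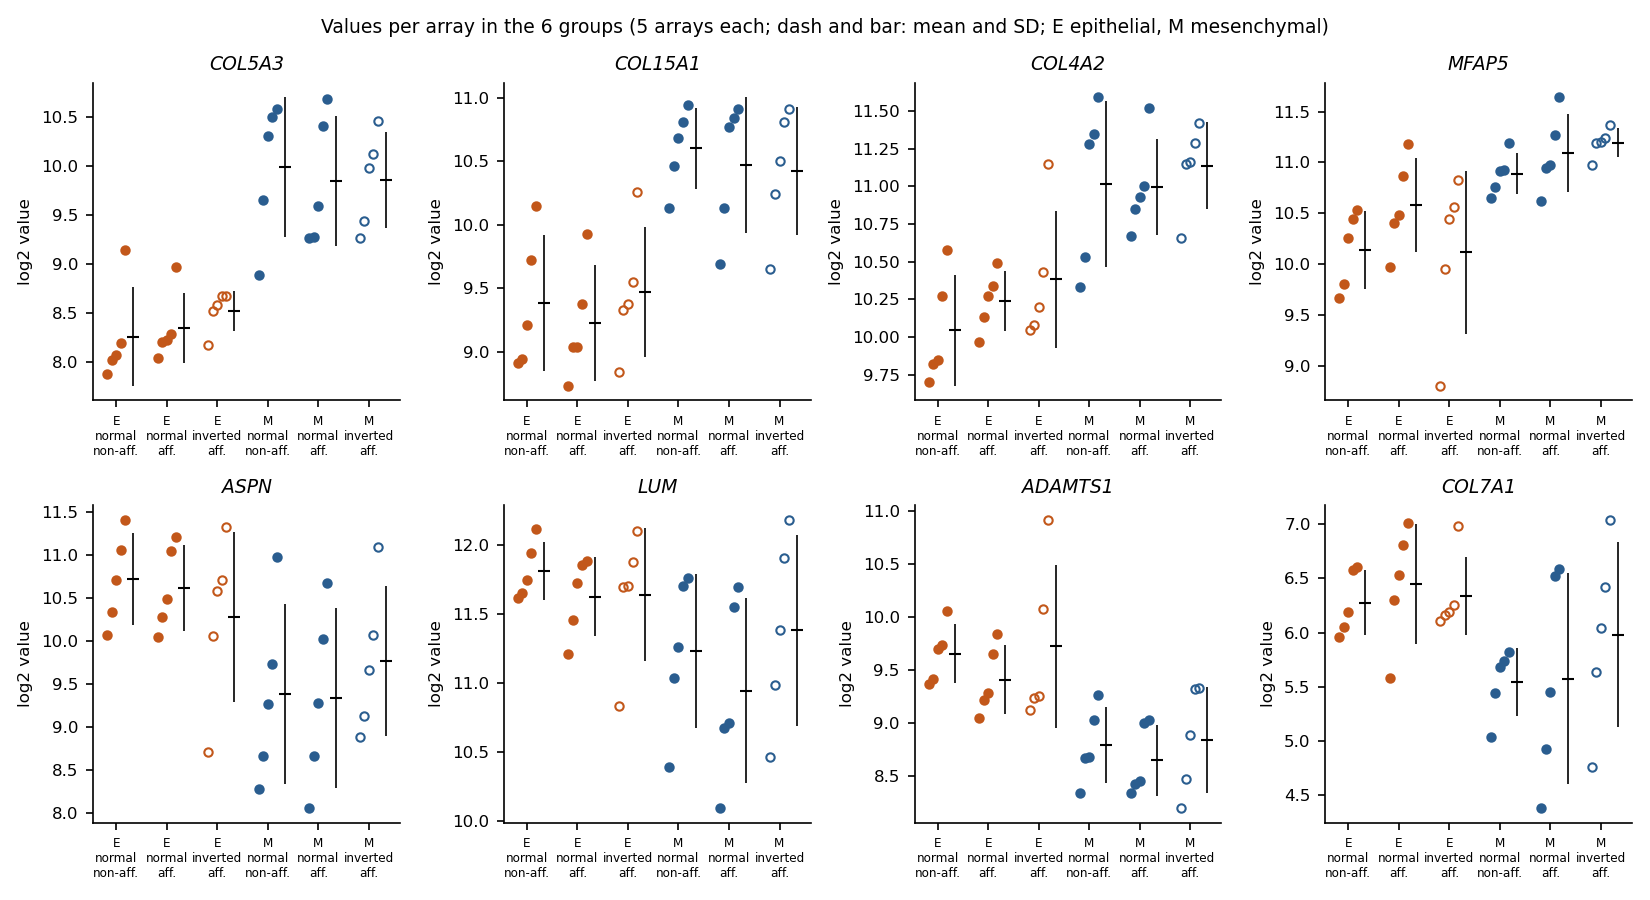
Log2 signal of 8 genes on each of the 30 arrays, in the 6 groups of 5 arrays; filled points are normal and open points inverted teats, and the dash and bar are the mean and SD of a group. Mesenchymal points of COL5A3, COL15A1 and COL4A2 lie mostly above the epithelial ones, and those of ASPN and ADAMTS1 mostly below.

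The split of the calls between tissues depended on the scaling of the arrays. With quantile normalization, which moved the median of all genes from -0.15 to -0.05, 26 of the 56 genes passed, 22 higher in epithelium and 4 higher in mesenchyme, against 15.1% and 20.7% of all genes. COL1A2 (0.97), FBLN1 (0.79), LOX (0.97), MMP2 (0.68) and TIMP1 (0.62) were among the 13 genes added, and MFAP5 and LAMC1 were not called. With the animal as a random block, 24 genes passed, 15 and 9 in the 2 directions, against 12% and 35.3% of all genes. All 15 genes stayed among these 24, and the added ones included COL1A2, FBLN1, LOX and TIMP3. As a fixed block it gave 22, again with all 15 and with COL3A1, COL1A2, FBLN1, LOX, TIMP3, ADAM10 and MFAP2 added.

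Among the mesenchymal arrays of normal teats, ASPN, LUM, COL7A1, ITGAV and ADAM28 were higher in the animals with high luminal markers. On the normal-teat mesenchymal arrays of animals 950, 957, 963 and 964, ASPN lay at 9.73 to 10.97, against 8.05 to 9.27 on the other 6. LUM lay at 11.55 to 11.76 against 10.09 to 11.26, and ADAM28 at 5.33 to 5.78 against 3.26 to 4.51. COL7A1 stood at 5.74 to 6.59 against 4.38 to 5.68, and ITGAV at 8.05 to 8.69 against 7.26 to 7.75. ITGB1, the common beta chain of matrix-binding integrins, lay at 10.20 to 10.74 against 9.51 to 10.19. For these genes the 4 arrays did not overlap the other 6, and for the other genes tested they did. How often such a split occurs over all genes was not computed, so it is not read as a trait of this set. The 4 arrays were singled out for their marker levels, so the split is a description without a test. The markers' part in the tissue differences was not tested.

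**Figure D3:**
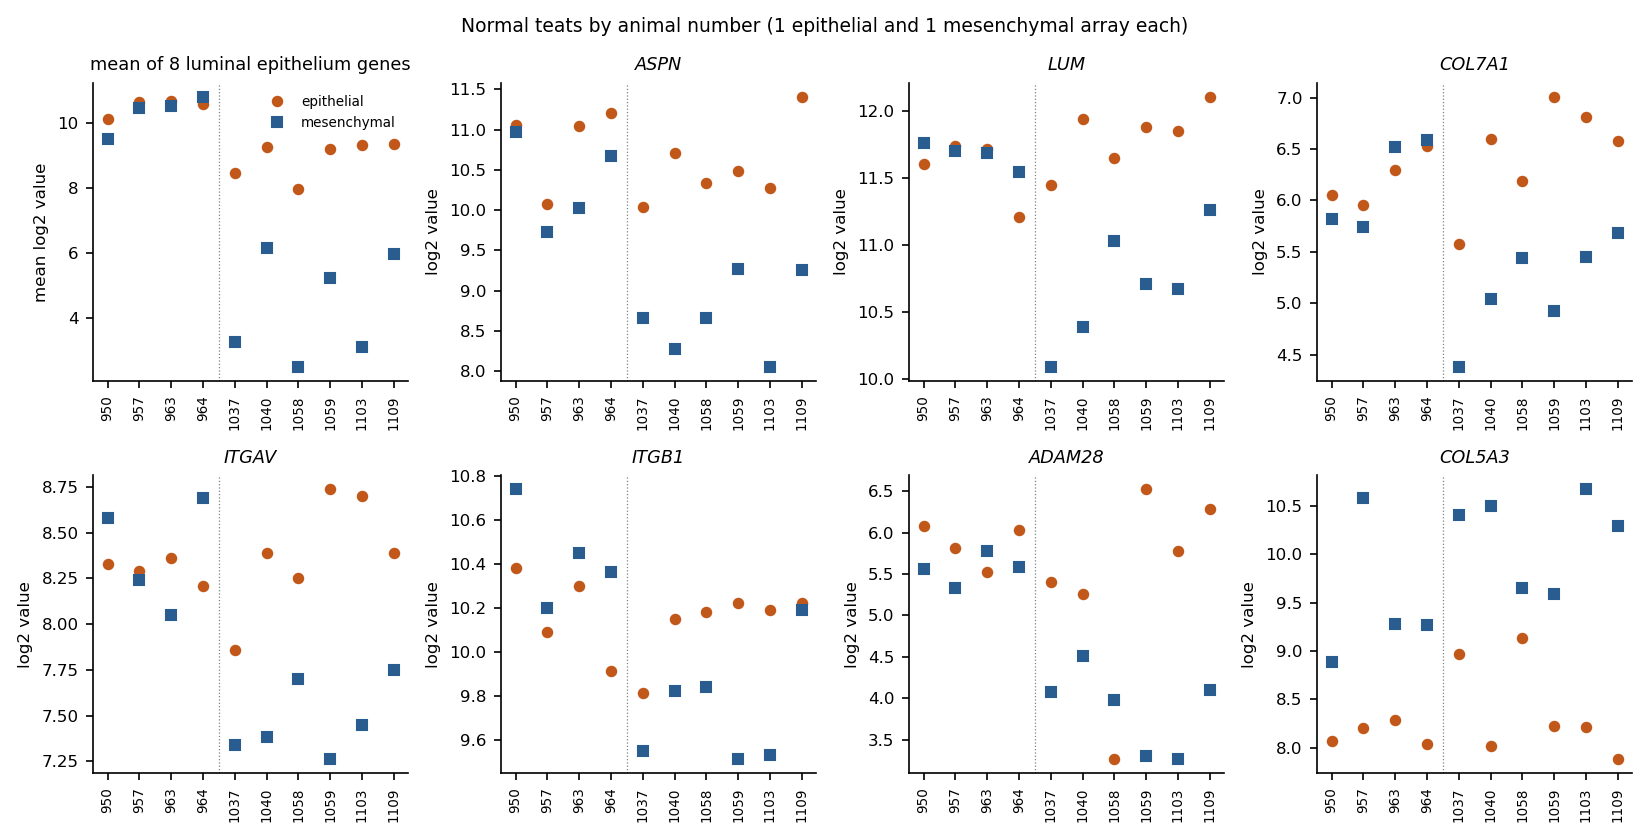
Log2 signal in the normal teats of the 10 animals, with epithelial arrays as circles and mesenchymal arrays as squares, for the mean of 8 luminal marker genes and 7 genes of the matrix, protease and integrin set; the dotted line follows animals 950, 957, 963 and 964. To the left of the line the 2 tissues lie close together for the luminal mean, LUM, COL7A1 and ADAM28. ASPN differs there by 0.09 in animal 950 and by 1.02 in animal 963. COL5A3 is higher in mesenchyme in every animal.

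Without the mesenchymal arrays of these 4 animals, an alternative added after seeing the data, 22 genes passed, 15 higher in epithelium and 7 higher in mesenchyme, against 16.2% and 31% of all genes. Of the original 15 genes 14 were among them, and MFAP3 was not (-0.41, adjusted p = 0.053). ASPN then differed by 1.97, LUM by 1.03, COL7A1 by 1.21, ITGAV by 0.87 and ADAM28 by 1.73, while COL5A3 (-1.89), COL15A1 (-1.48) and COL4A2 (-0.92) moved less. Calls also changed with single animals, and the count was 9 without animal 1059 and 21 without animal 950. LUM did not pass without animal 1040, 1059 or 1103, COL7A1 without 1040 or 1059, ITGAV without any of 963, 1040, 1058, 1059, 1103 and 1109, and LOXL4 with the mean over its probe sets.

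The same comparison in the inverted teats of the 5 affected animals gave 5 calls among 56 genes, 1 higher in epithelium and 4 higher in mesenchyme. Over all 6230 genes tested, 0.787% were called higher in epithelium and 20.8% higher in mesenchyme. The median difference was -0.06 over the 56 genes and -0.26 over all genes. All 5 genes had been called in the same direction in normal teats, in which the affected animals are among the 10, so the 2 comparisons share animals but set different arrays against each other.

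COL5A3 in inverted teats read 8.67, 8.18, 8.67, 8.52 and 8.58 in the epithelium of animals 963, 964, 1037, 1059 and 1103, and 9.98, 9.27, 10.12, 9.44 and 10.46 in their mesenchyme. The tissues did not overlap, and the difference was -1.33 ± 0.32 (adjusted p = 0.00617). MFAP5 read 10.56, 9.95, 10.83, 10.44 and 8.80 in epithelium and 11.19, 11.24, 11.37, 10.98 and 11.20 in mesenchyme, in the same order of animals. These groups did not overlap either, with animal 1103 the lowest in epithelium, and the difference was -1.08 ± 0.28 (adjusted p = 0.00983).

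COL15A1 read 9.38, 8.84, 9.55, 9.33 and 10.26 in the epithelium and 10.50, 9.65, 10.91, 10.24 and 10.81 in the mesenchyme of the inverted teats. The ranges overlapped, although mesenchyme was higher in 5 of 5 animals, by -0.95 ± 0.30 as epithelial minus mesenchymal (adjusted p = 0.0316). COL4A2 was also lower in the epithelium of all 5 animals, at 10.43, 10.20, 10.08, 10.05 and 11.15 against 11.15, 11.16, 11.29, 10.66 and 11.42. Its difference was -0.75 ± 0.24 (adjusted p = 0.0347).

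ADAMTS1 was the gene called higher in the epithelium of inverted teats, by 0.88 ± 0.28 (adjusted p = 0.0361), but only 3 of 5 animals showed that direction. Epithelial signals were 9.26, 9.24, 9.13, 10.08 and 10.92 and mesenchymal signals 9.33, 9.32, 8.48, 8.89 and 8.20. Animals 963 and 964 had the tissues nearly level, and animal 1103 was the highest in epithelium and the lowest in mesenchyme. Without the epithelial inverted array of animal 1103, the array with the highest smooth muscle and endothelial markers, the gene did not pass (0.59, adjusted p = 0.144), and the other 4 did. The part of those markers was not tested.

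In inverted teats none of the 8 luminal and 15 skeletal muscle markers was called between tissues. Their median differences were 0.55 and -2.27, against 3.14 and -5.38 in normal teats. All 9 adipocyte markers were called lower in epithelium there. Of the other genes of the set called in normal teats, none passed in inverted teats, and the markers' part in this was not tested. ASPN differed by 0.51 (adjusted p = 0.548), LUM by 0.26, ITGAV by 0.38, COL7A1 by 0.36, ADAM28 by 0.37, ADAM2 by 0.41, COL5A2 by 0.19, LOXL4 by 0.16, MFAP3 by -0.34 and LAMC1 by -0.39. DCN (-0.25), COL1A2 (-0.08), COL3A1 (0.19), COL17A1 (-0.10), FBN1 (-0.43), FBLN1 (-0.22), MMP2 (-0.02), MMP9 (-0.39), TIMP1 (-0.10), TIMP3 (-0.32) and LOX (0.18) did not pass in these teats. Several of these values moved by over 1.5 times without the epithelial inverted array of animal 1103, and none passed. ADAM28 then stood at 1.27, ASPN at 0.91, LUM at 0.46, COL5A2 at 0.42, DCN at -0.06 and FBN1 at -0.27, while COL17A1 (0.35), COL1A2 (0.34), FBLN1 (0.16) and MMP2 (0.11) lay on the other side of 0. In the mesenchyme of the inverted teats ASPN read 9.66, 11.09, 8.88, 10.07 and 9.13 and LUM 11.90, 12.18, 10.46, 11.38 and 10.98. For both genes animal 964 was the highest and animal 1037 the lowest. The luminal means of these mesenchymal arrays were 9.89, 11.13, 3.62, 8.52 and 7.73 in animals 963, 964, 1037, 1059 and 1103. Their part in the signals of ASPN and LUM was not tested.

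In inverted teats the calls moved with the setting. Quantile normalization, which moved the median of all genes from -0.26 to -0.09, left 1 call, ADAMTS1, with none higher in mesenchyme, against 2.78% and 6.53% of all genes. With the animal as a random block 7 genes passed, 1 and 6 in the 2 directions, against 2.65% and 30.6% of all genes, and the added genes were COL8A1 (-0.82) and LAMC1. Without the mesenchymal arrays of animals 963 and 964 (and 950 and 957 in the other groups), 7 genes passed, 4 higher in epithelium and 3 in mesenchyme, against 6.23% and 24.6%. ITGAV (0.85), ITGB1 (0.60) and ADAM2 (0.68) were called there, and COL4A2 was not (-0.74, adjusted p = 0.067). Leaving out single animals gave 1 call without 1103, 2 without 1037 or 1059, 3 without 963 and 4 without 964.

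Whether the tissue difference itself differed between inverted and normal teats of the affected animals was tested as an interaction, and none of the 56 genes passed. The share of all genes called was 0%, and 0 of the 56 genes had an unadjusted p below 0.05 in limma. The largest interaction was that of ITGB1BP2, 1.77. It leans on 1 array, the mesenchymal inverted teat of animal 963, where the gene read 0.00. Inverted minus normal mesenchyme was -6.83 in that animal and between -0.96 and 1.5 in the other affected animals. MFAP5 (-0.57), FBN1 (-0.40) and MFAP1 (-0.33) had the smallest unadjusted p-values below 0. ASPN stood at -0.77. Without the epithelial inverted array of animal 1103, MFAP5 (-0.24), FBN1 (-0.23), ASPN (-0.37) and COL15A1 (0.09) moved towards 0 by over 1.5 times and MFAP1 stood at -0.38. COL15A1 (0.29) and the collagen receptor subunit ITGA2 (0.36) were named with ITGB1BP2 by the same rule above 0. The skeletal muscle markers had a median interaction of 3.5 in that comparison and none was called, and their part in the value of ITGB1BP2 was not tested. The luminal markers had a median of -2.67.

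Between kinds of teat within a tissue, no gene of the set passed in any of the 6 comparisons, and 0% of all genes were called in each. Over those comparisons and 2 interactions, 0 to 4 of the genes tested had an unadjusted p below 0.05 under any alternative with limma. Without animal 957, 1 probe set outside the set was called between affected and non-affected mesenchyme. The lowest adjusted p over the set was 0.9995.

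**Figure D4:**
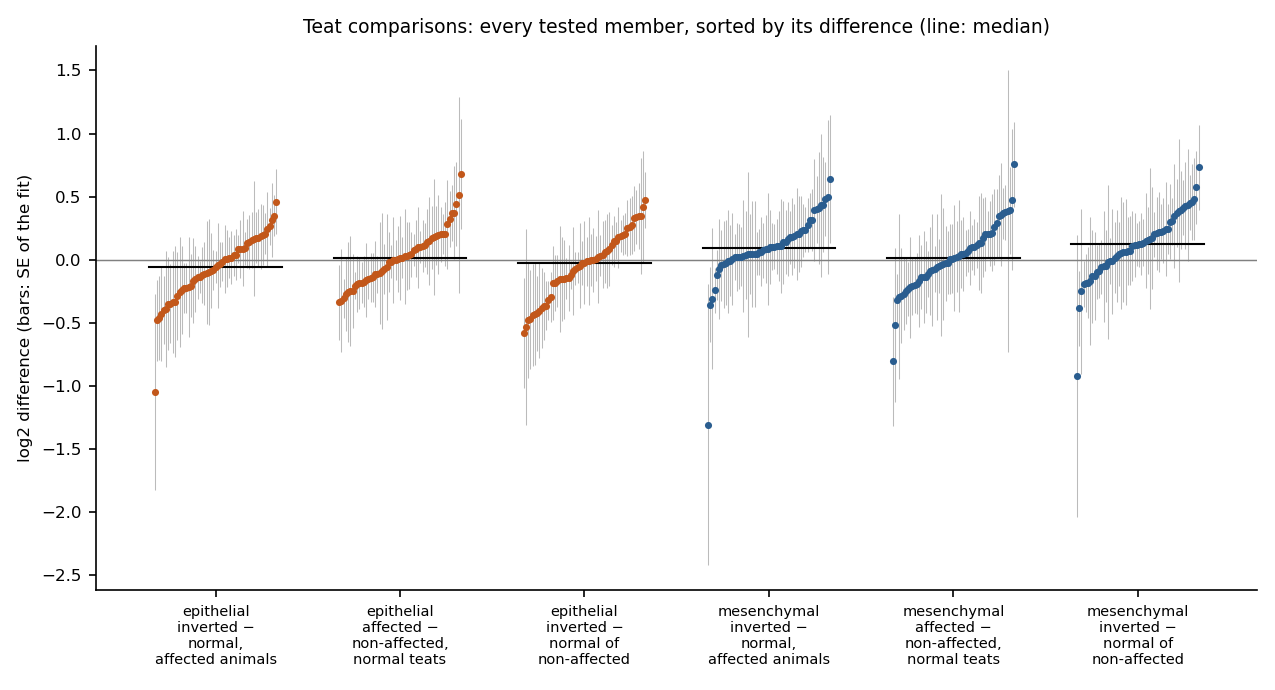
Differences in log2 signal between kinds of teat for every gene tested, sorted within each of the 6 comparisons (3 in epithelium, 3 in mesenchyme), with bars of 1 SE and a line at the median. Most bars cross 0, and in the mesenchyme of inverted minus normal teats 45 of 56 points lie above 0.

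In the epithelium, inverted minus normal teats of the same 5 animals differed by between -1.05 and 0.46 over 55 genes, with a median of -0.06. ADAM2 had the smallest unadjusted p, 0.045 in limma, with a difference of 0.35 ± 0.16. It was higher in the inverted teat of 5 of 5 animals. Its inverted-teat signals were 5.01, 5.59, 5.20, 5.11 and 4.88 for animals 963, 964, 1037, 1059 and 1103, against 4.84, 5.23, 4.51, 4.83 and 4.63 in their normal teats. The ranges overlapped, and all values lay near the filter's level. Below 0, the collagenase MMP13 (-0.48), MFAP5 (-0.46) and COL5A2 (-0.40) had the smallest unadjusted p-values, and above 0 ITGB1 (0.26) and ITGB1BP2 (0.46) followed ADAM2. ASPN (-0.34 ± 0.40), DCN (-0.22), LUM (0.02), COL1A2 (-0.33), COL3A1 (-0.10), COL17A1 (-0.22), FBLN1 (-0.43), FBN1 (-0.08), LOX (-0.39), MMP2 (-0.17), MMP9 (-0.26), TIMP1 (-0.21) and TIMP3 (0.04) all had adjusted p-values above 0.99. Most of the values below 0 were smaller without the inverted array of animal 1103, where MMP13 stood at -0.18, MFAP5 at -0.13, COL5A2 at -0.17 and FBLN1 at -0.05. ASPN (0.06), COL1A2 (0.08), COL3A1 (0.08), COL17A1 (0.24) and FBN1 (0.08) were then above 0, while LOX (-0.42) and TIMP1 (-0.18) stayed below. In the same contrast the skeletal muscle markers had a median of 1.92 and none was called.

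Normal teats of affected minus non-affected animals, which leave out the malformed teat itself, spanned -0.34 to 0.68 in epithelium with a median of 0.01. None of the 55 genes had an unadjusted p below 0.05 in limma. Over all 17671 probe sets tested 419 did, which is a small share as well, so the set does not stand out. The genes nearest to it were ITGB3 (-0.31), LOXL4 (-0.21) and ADAM9 (-0.18) below 0 and the fibronectin receptor subunit ITGA5 (0.32), the platelet subunit ITGA2B (0.37) and MMP9 (0.68) above it. Of 14 well-known members that were followed through all comparisons (ASPN, DCN, LUM, COL1A2, COL3A1, COL17A1, FBN1, FBLN1, MFAP5, MMP2, MMP9, TIMP1, TIMP3 and LOX), 7 lay above 0 here, from COL3A1 at -0.33 to MMP9 at 0.68. Inverted teats of affected minus normal teats of non-affected animals, which share the non-affected arrays with that comparison, spanned -0.58 to 0.47. There ITGA5 had an unadjusted p of 0.049 (0.47 ± 0.22), at 7.76, 7.47, 7.91, 7.97 and 8.45 in the inverted teats of animals 963, 964, 1037, 1059 and 1103. The non-affected animals 950, 957, 1040, 1058 and 1109 read 6.72, 7.81, 7.31, 8.0 and 7.34. The groups overlapped, and animal 950 was the lowest of all and animal 1103 the highest. COL1A2 stood at -0.58, COL6A3 at -0.36, DCN at -0.30, ITGB3 at -0.32, COL4A2 at 0.34 and ADAM17, the shedding protease of membrane growth factors, at 0.19. Of the 14 members followed throughout, 3 lay above 0, with MMP9 the highest at 0.42. Without the inverted array of animal 1103, ITGA5 stood at 0.34, COL1A2 at -0.17, COL6A3 at -0.16, DCN at -0.11 and COL4A2 at 0.15.

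In the mesenchyme, inverted minus normal teats of the same animals spanned -1.31 to 0.64, with a median of 0.09, and 45 of 56 genes lay above 0. Over all 6102 genes tested 4162 lay above 0, and the median was 0.07. None of the 56 genes had an unadjusted p below 0.05 in limma. COL10A1, the collagen of hypertrophic cartilage (0.48), and LUM (0.44) were higher in the inverted teat of 5 of 5 animals. LAMB1, LOXL4 and ITGB1 were too, and the share of all genes higher in every animal was not computed. ADAM2 (0.40), ASPN (0.43), FBN1 (0.32) and MMP9 (0.31) lay above 0. So did 13 of the 14 members followed throughout, with TIMP3 at -0.008 as the exception, and none passed. ITGB1BP2 had the most negative value, -1.31 ± 1.12, and read 0.00, 5.20, 6.77, 6.90 and 4.96 in the inverted teats of animals 963, 964, 1037, 1059 and 1103. Animal 963 alone was at 0, on the array where the skeletal muscle markers averaged 3.66, the lowest of the inverted mesenchymal arrays. Without the mesenchymal arrays of animals 963 and 964 among others, ITGB1BP2 stood at 0.09 in this comparison.

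COL8A1, a short-chain collagen of vessel walls and of the endothelium of the cornea, had the smallest unadjusted p among the genes above 0 in the other 2 mesenchymal comparisons. Its normal-teat signals were 5.63, 5.35, 4.57, 6.01 and 6.77 in the non-affected animals 950, 957, 1040, 1058 and 1109. In the affected animals 963, 964, 1037, 1059 and 1103 they were 6.23, 6.14, 6.94, 6.06 and 6.74 in normal and 6.26, 6.5, 7.03, 6.19 and 6.01 in inverted teats. Animals 950, 957 and 1040 lay below every affected array, while 1058 and 1109 lay among them or close by. The difference of affected from non-affected animals was 0.76 ± 0.34 in normal teats (unadjusted p = 0.040 in limma) and 0.73 ± 0.34 with the inverted teats, over the same non-affected arrays. Neither passed after adjustment. The 14 members followed throughout ranged from LUM at -0.29 to FBLN1 at 0.34 in the first comparison and from COL3A1 at -0.05 to FBLN1 at 0.48 in the second. In the first of these comparisons ADAM10 (-0.81), ITGB7 (-0.32) and ITGB3 (-0.23) were named below 0, and ITGA2 and ADAM15 (each 0.37) above it. In the second ITGB1BP2 (-0.92), ITGA2B (-0.39) and the stromelysin MMP3 (-0.19) lay below 0, and ADAM15 (0.45) and COL10A1 (0.57) above. The interaction of tissue with affected status gave COL8A1 -0.61, ITGA2 -0.51, COL6A3 -0.25, FBN1 0.39, MMP9 0.58 and ADAM10 0.79, with none of 56 genes below an unadjusted p of 0.05 in limma.

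For some genes the arrays of an animal stood together, which was seen in the values and is given without a test. COL3A1 in epithelium read 5.67 to 5.95 in animals 1037, 1058 and 1103 (5 arrays), whereas the 7 remaining animals (10 arrays) lay at 6.59 to 7.52. In mesenchyme the ranges were 5.15 to 5.63 and 6.09 to 7.24. In that gene the SD between the 2 teats of an affected animal was 0.16 in epithelium, against an SD of 0.69 over the epithelial arrays. LOX read 11.12 and 11.41 in the normal-teat epithelium of animals 1103 and 1109, the 2 Pietrain crosses, and 8.68 to 9.85 on the other 13 epithelial arrays. In their mesenchyme it read 10.50 and 10.31, and 8.43 to 9.79 on the other arrays. In the inverted teat of animal 1103 it read 9.42 in epithelium, within the range of the other arrays, and 9.79 in mesenchyme, the highest after those 2 normal teats.

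**Figure D5:**
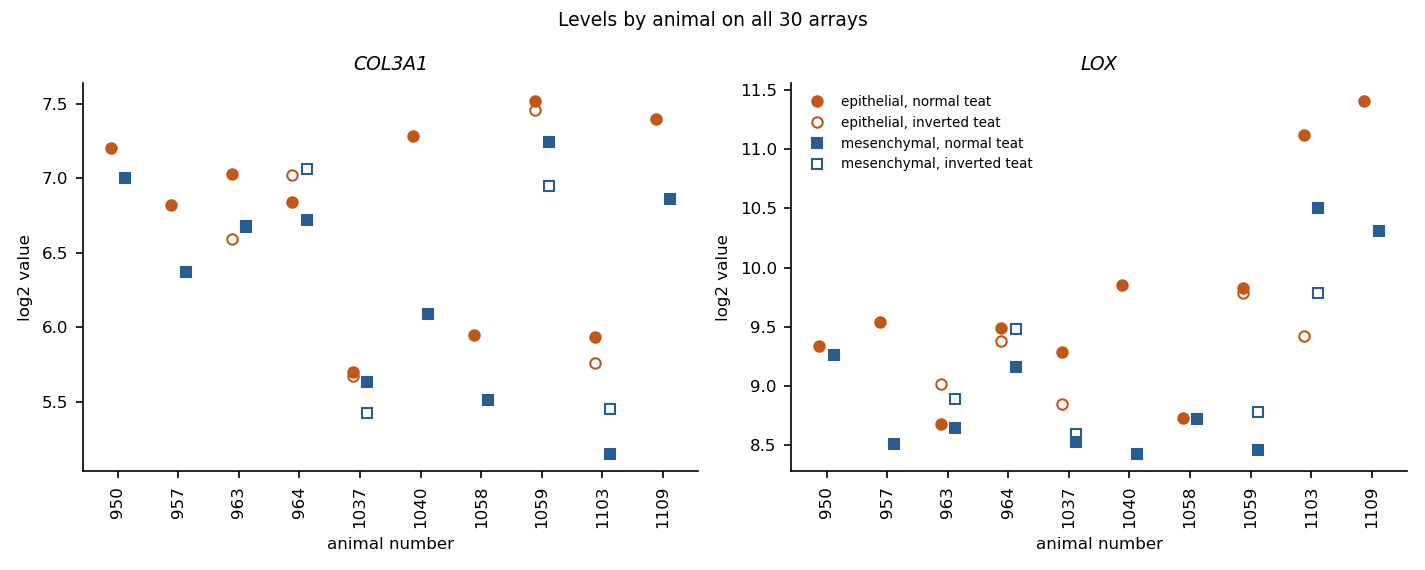
Log2 signal of COL3A1 and LOX on the 30 arrays by animal, with epithelial and mesenchymal tissue in separate colours and inverted teats as open points. Animals 1037, 1058 and 1103 are low for COL3A1 in both tissues, and the normal teats of 1103 and 1109 are high for LOX.

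Animal 950 was the lowest in both tissues for several genes of the set, and how often this occurs over all genes was not computed. COL6A2 read 10.29 in its epithelium, against 11.2 to 12.03 elsewhere, and 9.93 in its mesenchyme, against 10.69 to 12.66. MMP2 read 10.28 against 10.88 to 12.25 in epithelium and 10.15 against 10.91 to 12.34 in mesenchyme. The same held for MMP14, the membrane-bound activator of MMP2, at 6.32 and 6.28, for MFAP2 at 8.0 and 8.09 and for TIMP3 at 7.61 and 7.95. TIMP2, LAMB2, ITGA5 and ITGB5 were also lowest in both tissues of this animal. Among the genes tested, ADAM28 had an SD of 1.36 over the epithelial arrays and ITGB1BP2 of 1.93 over the mesenchymal ones.

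Other genes of these pathways, from lists of the same subject without the 64, were examined in the same fit. Over all genes tested in normal teats, 8.46% were called higher in epithelium and 29% higher in mesenchyme. In inverted teats the shares were 0.787% and 20.8%. The counts of the lists were not tested against these shares. Of 18 matrix glycoproteins and proteoglycans tested in normal teats, 2 were higher in epithelium and 4 in mesenchyme. SPARCL1, a collagen-binding relative of SPARC, was higher by 0.89 and POSTN (periostin), a fibroblast matricellular protein, by 1.34, and the tenascins TNC (-0.82) and TNXB (-0.70) and the basement membrane linker NID2 (-0.48) were lower. Of 10 collagen biosynthesis genes 1 was higher and 2 were lower, namely the prolyl hydroxylase chain P4HA2 (0.41), the procollagen C-proteinase BMP1 (-0.51) and the lysyl hydroxylase PLOD3 (-0.43). Of 12 genes of matrix degradation 5 were lower in epithelium and none higher, among them the lysosomal protease CTSD (-1.24), the protease inhibitor SERPINE2 (-0.71) and the fibroblast protease FAP (-0.57). Of 13 adhesion and receptor genes the collagen receptor kinase DDR1 was higher (1.70), and the syndecan SDC1 (-0.79) and the integrin activator TLN1 (-0.69) were lower. In inverted teats CTSD (-1.12), CTSB (-0.62) and SDC4 (-0.78) were lower in epithelium and no other gene of these lists passed. None of the 4 lists had a call in the comparisons between kinds of teat or in the interactions.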

How the data were processed

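Total RNA of each tissue was measured on 1 Affymetrix Porcine array per sample. The deposited values are log2 signals, 1 per probe set and array. No label states the base, which was taken from how far the values reach, and the submitters' processing notes name GCOS 1.1.1 and PLIER without their roles. Of 24123 probe sets 10099 had a single symbol, 198 several and 13826 none, and 124 control probe sets were left out. All 64 member symbols had the same symbol in the RefSeq gene table by Entrez ID, through 111 probe sets. The members and lists were chosen with earlier results of these data known.

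Differences were tested with limma 3.58.1 in R 4.3.3 (lmFit and eBayes) on the deposited values, over all probe sets above the array's 30th percentile (4.49 to 4.84) on at least 5 arrays of a fit, with Benjamini-Hochberg adjustment over all of them at 0.05. Normal teats of both animal groups entered the first tissue fit, all 30 arrays the second and the interactions, and the arrays of 1 tissue each the teat comparisons. The fits had no animal term. Replicates are different animals, and the number of arrays limits the precision; such files carry no read depth. No 2 arrays were copies, the highest correlation being 0.954. The scripts were tested on simulated data.

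The same animal gave several arrays, so animal numbers pair them. Deviations from group means correlated between the arrays of an animal at 0.15 to 0.29 for epithelial and 0.08 to 0.42 for mesenchymal teats, 0.0026 to 0.51 for normal and -0.01 to 0.37 for inverted tissues.

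Alternatives were a fixed and a random block for the animal, breed as a covariate, quantile normalization, no moderation of the variance, no filter, a stricter filter, a floor on low signals, the mean over probe sets of a gene, each animal left out, the epithelial inverted array of animal 1103 left out and, added after seeing the data, the mesenchymal arrays of 4 animals left out. Genes were named by rule. These were up to 10 per direction past the threshold in normal teats, and the same genes and up to 3 more per direction in inverted teats. For teat comparisons and interactions they were those past the threshold, filled to 3 per direction by the smallest p. Fixed well-known members were named throughout, and extremes of level and spread, and up to 3 genes per pathway list and direction. Genes named otherwise were chosen after their values were seen. Genes of the naming rule without a single-symbol probe set were not analysed here.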

Additional observations from a re-analysis of the deposited data

Results flagged for a closer look

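Within each group of 5 arrays, the highest and lowest were set against the gap to their nearest neighbour for 26 of the genes. In 11 of 156 groups an array stood apart by Dixon's criterion, where chance sets apart about 1 in 20. The inverted-teat epithelium of animal 1103 accounted for 4 of these, all low. ADAM28 read 1.19 there, against 5.54 to 5.85 in the other 4 animals. COL17A1 read 5.49 against 7.51 to 7.91, FBLN1 7.83 against 9.58 to 9.91, and FBN1 10.39 against 11.11 to 11.32. On this array the luminal markers averaged 5.12 and the keratinocyte markers 5.25, and their part in the low values was not tested.

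In normal-teat epithelium COL5A3 was high in the non-affected animal 1058, at 9.14 against 7.88 to 8.20, and in the affected animal 1037, at 8.97 against 8.04 to 8.29. COL7A1 was high in the inverted-teat epithelium of animal 964, at 6.98 against 6.11 to 6.25. In mesenchyme FBN1 was low in the normal teat of animal 1040, at 10.67 against 11.39 to 11.63 in the other non-affected animals. LOXL4 was high in the normal teat of animal 963, at 7.69 against 7.07 to 7.23, and MMP2 in that of animal 1103, at 12.34 against 10.91 to 11.28. MFAP3 was low in the inverted teat of animal 1059, at 4.45 against 5.08 to 5.28.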

How the results depend on the processing

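Over 204 named results, 3925 values were computed under alternatives; 3805 kept direction and side of the threshold (sign changes smaller than 1 SE that passed in neither setting included), 64 lost a call, 23 gained one and 33 reversed. In normal teats the count of 15 genes between tissues became 26 with quantile normalization, 24 with the animal as a random replicate block and 22 as a fixed one, and 9 to 21 when single animals were left out. In inverted teats the count of 5 became 1 with quantile normalization and 3 with the mean over probe sets, and 1 to 5 with animals left out. The blocks ended the call of ADAMTS1 in inverted teats with the fixed block and no other call of these 2 comparisons. Reversals with quantile normalization were FBN1 at 0.20 in normal teats, and COL1A2 (0.39), DCN (0.052), FBN1 (0.10), LAMC1 (0.073), MMP2 (0.48) and TIMP1 (0.29) between tissues of inverted teats. Without the epithelial inverted array of animal 1103, COL17A1 (0.35), COL1A2 (0.34) and FBLN1 (0.16) reversed between tissues, and COL17A1 (0.24) and FBN1 (0.081) between inverted and normal epithelium. The mean over probe sets gave DCN 0.93 and LOXL4 0.16 in normal epithelium by status, DCN 0.052 in inverted against non-affected epithelium, DCN -0.17 in normal mesenchyme by status, COL17A1 -0.039 in inverted against non-affected mesenchyme, and COL8A1 0.065 and DCN 1.1 in the interaction with status. The second probe set of DCN averaged 1.08 over all arrays, against 12.80 for the probe set that stood for the gene. The other probe sets of LOXL4 averaged 4.11 and 3.09, and that of COL17A1 4.03. These added probe sets averaged below the filter's level, so the reversals of DCN, LOXL4 and COL17A1 with this mean are not used as support. With a floor, MMP9 was -0.072 in inverted against non-affected epithelium. Without the mesenchymal arrays of 4 animals, mesenchyme of inverted minus normal teats gave MFAP5 -0.10, DCN -0.13, COL1A2 -0.28 and ITGB1BP2 0.092, and inverted against non-affected gave COL1A2 -0.14, MMP2 -0.19, TIMP3 -0.37 and ITGB1BP2 0.56. With animals left out, COL17A1 ranged from -0.37 to 0.29 between tissues of inverted teats and from -0.37 to 0.20 in inverted minus normal epithelium, FBN1 there from -0.17 to 0.11, and ITGB1BP2 from -2.01 to 0.069 and from -1.46 to 0.27 in the mesenchyme of inverted against normal and non-affected teats. The cause of these changes was not tested. Genes near the filter's level (ADAM2, ADAM28, MFAP3) lost their calls under several alternatives. So did ITGAV, at 7.26 to 8.74 in normal teats, and LUM, at 10.09 to 12.11. The part of low signal in the lost calls was not tested.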
